A study of Mus musculus with 7 samples.

Results

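The genes described here encode parts of the inflammasome, pyroptosis and necroptosis machinery: the sensors Nlrp3 and Aim2, the adaptor Pycard, the inflammatory caspases Casp1 and Casp4, the pore-forming protein Gsdmd, the cytokines Il1b and Il18, and the necroptosis kinase and effector Ripk3 and Mlkl. They were taken by gene symbol, and all 10 had a row among the 23420 rows of the table. RNA of 7 mouse hearts was sequenced in bulk, 1 library per mouse. The 4 control hearts were Ctla4+/+;Pdcd1-/- and the 3 hearts labelled as myocarditis of the immune checkpoint inhibitor (ICI) type were Ctla4+/-;Pdcd1-/-. The mice were 3 to 6 weeks old, and the labels give no treatment. The model is therefore a genetic one, and the deletion of Pdcd1, which encodes the checkpoint receptor PD-1, is shared by the controls. The tissue is labelled as whole heart, while the protocol names flash-frozen ventricle.

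Inflammasomes are cytosolic platforms on which a sensor recruits the adaptor ASC, the product of Pycard, and through it caspase-1. NLRP3 responds to cell stress and ion fluxes, AIM2 binds cytosolic DNA, and mouse caspase-11, the product of Casp4, binds bacterial lipopolysaccharide directly. Active caspase-1 matures IL-1β and IL-18, and both caspases cleave gasdermin D, whose fragments form membrane pores in the lytic death called pyroptosis. In necroptosis the kinase RIPK3 phosphorylates MLKL, which then breaches the membrane. These proteins are controlled to a large extent by cleavage, assembly and phosphorylation, which RNA counts do not measure.

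Casp1 and Casp4 lie side by side on chromosome 9 of the GRCm38 build and both rose, so the bases before their starts are shown first, together with those before a start of the sensor Nlrp3. The sequences come from RefSeq on GRCm38.p6, where 9 of the 10 genes matched a promoter entry. Gsdmd had no entry. Each run covers 225 bases on the coding strand, beginning 250 bases before a transcription start. The windows are chr9:5308599-5308823 for Casp4, chr9:5298267-5298491 for Casp1 and chr11:59541319-59541543 for Nlrp3, all on the plus strand. Capitals mark matches to the NF-kappaB consensus, a site family found at many inflammatory genes, on either strand.
Casp4: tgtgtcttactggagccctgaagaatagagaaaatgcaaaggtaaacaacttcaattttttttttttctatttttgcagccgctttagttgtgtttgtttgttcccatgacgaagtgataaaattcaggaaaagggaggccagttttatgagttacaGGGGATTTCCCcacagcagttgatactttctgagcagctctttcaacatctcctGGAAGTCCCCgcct
Casp1: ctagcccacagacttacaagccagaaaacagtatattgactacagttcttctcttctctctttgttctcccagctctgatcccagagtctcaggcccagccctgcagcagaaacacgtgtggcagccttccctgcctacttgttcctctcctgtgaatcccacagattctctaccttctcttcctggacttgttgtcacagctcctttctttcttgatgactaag
Nlrp3: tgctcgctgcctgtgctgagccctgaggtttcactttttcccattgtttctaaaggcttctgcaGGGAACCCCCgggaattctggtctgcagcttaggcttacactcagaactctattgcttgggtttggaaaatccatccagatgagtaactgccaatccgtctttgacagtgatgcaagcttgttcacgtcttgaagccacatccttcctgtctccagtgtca
Motifs of 3 kinds were searched on both strands over the whole 250 bases. The NF-kappaB consensus was present in 7.25% of 32851 mouse windows of this length and in 3 of the 11 windows of these genes, namely both overlapping windows of Casp4 and 1 of 2 windows of Nlrp3. In the Casp4 window shown, overlapping matches began 93 and 92 bases before the start, and a separate match began 39 bases before it. The Nlrp3 match began 186 bases before the start. Matches to TTCNNNGAA, the core bound by STAT proteins, and to the core of the interferon-stimulated response element were at 0 in the 11 windows, against 7.02% and 2.98% of all windows. A match describes the letters of these windows and shows no binding.

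Libraries held 20931730 to 39037176 reads assigned to genes, recovered from the deposited normalized counts. Values below are those normalized counts, that is, reads after division by a size factor of each library, unless a scale is named. Counts per gene did not check the genotype: Ctla4 lay at 29.2 to 113 in controls and at 251 to 373 in the Ctla4+/- hearts, and Pdcd1, labelled as deleted throughout, at 2.50 to 244 and 1096 to 1481. All 8 cardiomyocyte markers were present, with sums of 1484090 to 3367890 in controls and 822868 to 1615810 in ICI-myocarditis. Control 2 stood apart from the other controls. It was the highest control for 9 of the 10 genes, Pycard being the exception, against 35.3% of all genes tested. Its T cell marker sum was 1308 against 101 to 163 in the other controls, and its macrophage and monocyte marker sum was 18821 against 12766 to 16999. The part of these cells in the values of control 2 was not tested.

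All 10 genes passed the filter on low values (10 normalized counts or more in 3 libraries or more), and 8 of them rose in ICI-myocarditis at an adjusted p under 0.05 by limma, a linear model with shared variance estimates. Over all 15258 genes tested, 15.7% were called and 11.7% were called higher. For 9 of the 10 genes every ICI-myocarditis library lay above every control, as it did for 17.3% of all genes tested. All 10 fold changes were above 0, as were 48.1% of all. The median log2 fold change of the 10 was 1.93, beside -0.02 over all genes tested. Each log2 fold change compares ICI-myocarditis with control after 1 was added to the normalized counts. The genes not called were Il1b and Ripk3. In bulk tissue more cells of a type and more RNA per cell cannot be told apart.

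**Figure D1:**
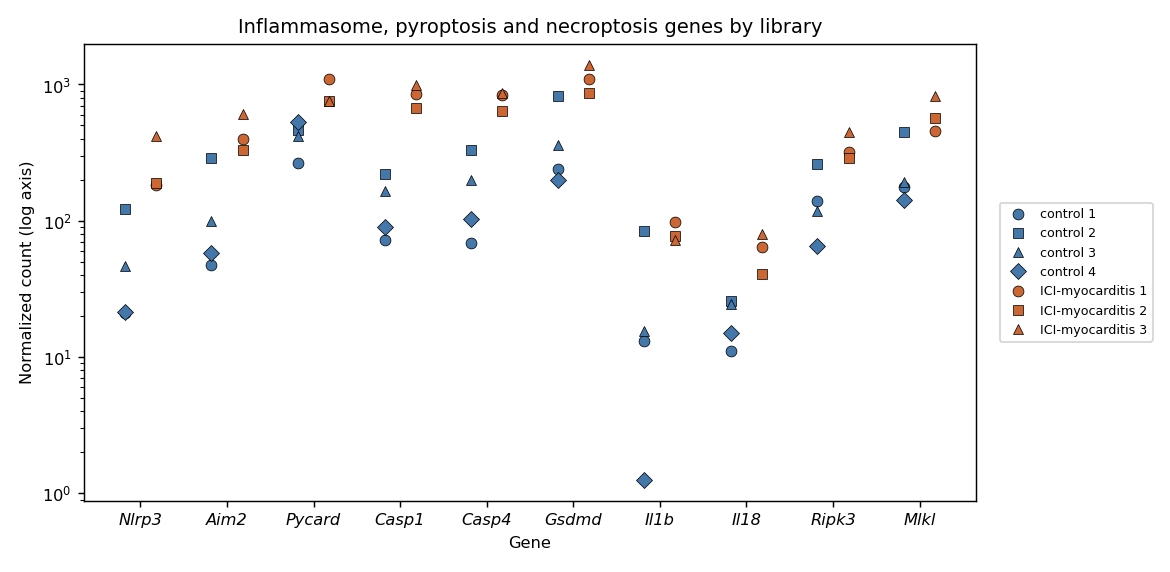
Normalized counts (log axis) of the 10 genes in each library, with controls in blue and ICI-myocarditis in orange and 1 marker shape per library number. Il1b is the 1 gene whose groups overlap, since control 2 lies at 83.9 and ICI-myocarditis 2 and 3 at 76.8 and 71.8.

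Among the sensors, Nlrp3 (chromosome 11, 59541568 to 59566956) stood at 21.2, 122, 46.9 and 21.3 normalized counts in controls 1 to 4 and at 182, 188 and 417 in ICI-myocarditis 1 to 3. Control 2 was the highest control and ICI-myocarditis 3 lay far above the other hearts of its group, yet the groups did not overlap. The log2 rise of Nlrp3 was 2.56 (SE 0.615, limma adjusted p = 0.0231). Aim2 (chromosome 1, 173350879 to 173466040) had 47.4, 289, 99.4 and 57.6 normalized counts in the controls and 401, 328 and 603 in ICI-myocarditis. Here control 2 came close to the lowest ICI-myocarditis heart without reaching it. Aim2 rose by 2.18 (SE 0.566, limma adjusted p = 0.0310). Its gene model in GENCODE M21 overlaps Cadm3 on the other strand, and the use of strand in counting is not given in the sources used here. Cadm3 itself had 45.6 to 116 normalized counts in controls and 101 to 115 in ICI-myocarditis.

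Pycard (chromosome 7, 127989708 to 127993867), the adaptor gene, was measured at 263, 466, 418 and 533 normalized counts in controls and at 1105, 759 and 759.5 in ICI-myocarditis. Control 4, not control 2, was its highest control, and the groups were well apart. Its log2 fold change, 1.08, was the smallest of the 10 (SE 0.274, limma adjusted p = 0.0281).

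Casp1 (chromosome 9, 5298517 to 5307265), which encodes the caspase that the platform activates, had 72.6, 222, 164 and 90.1 normalized counts in controls and 850.2, 669 and 998 in ICI-myocarditis. The lowest ICI-myocarditis heart was far above the highest control. Casp1 had the largest log2 fold change of the 10, 2.73 (SE 0.384, limma adjusted p = 0.00383). Casp4 (chromosome 9, 5308828 to 5336783), encoding caspase-11, read 68.6, 333, 199.9 and 104 in controls and 838, 636 and 870.3 in ICI-myocarditis. The controls stood in the same order as for Casp1, with control 2 highest and control 1 lowest. Casp4 rose by 2.38 (SE 0.479, limma adjusted p = 0.0112).

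Gsdmd (chromosome 15, 75862327 to 75867408), the gene of the pore-forming substrate of both caspases, had 238, 824, 357 and 198 normalized counts in controls and 1104, 869 and 1395 in ICI-myocarditis. Control 2 was only slightly below ICI-myocarditis 2. The log2 rise was 1.68 (SE 0.445, limma adjusted p = 0.0334).

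Both cytokine genes had few reads. Il1b (chromosome 2, 129364570 to 129371139) had 13.1, 83.9, 15.6 and 1.25 normalized counts in controls, the last of these being 1 read, and 98.2, 76.8 and 71.8 in ICI-myocarditis. Control 2 lay above 2 of the 3 ICI-myocarditis hearts, so the groups overlapped. The log2 fold change of Il1b was 2.50, with a 95% interval of 0.28 to 4.73, and it did not pass (SE 0.988, limma adjusted p = 0.124). Il18 (chromosome 9, 50554827 to 50581840) stood at 11.1, 25.9, 24.6 and 15.0 in controls and at 64.5, 40.6 and 79.5 in ICI-myocarditis. These are 11 to 22 reads per control library and 56 to 104 per ICI-myocarditis library. Il18 rose by 1.66 (SE 0.432, limma adjusted p = 0.0309), with the groups apart. Its gene model overlaps Bco2 and Tex12 on the other strand, and Bco2 had 12.5 to 34.5 normalized counts in controls and 30.7 to 53.5 in ICI-myocarditis. Where counting ignored strand, reads of these genes cannot be told apart.

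Of the necroptosis pair, Ripk3 (chromosome 14, 55784995 to 55788865) had 140.1, 259, 117 and 65.1 normalized counts in controls and 318, 291 and 445 in ICI-myocarditis. The groups did not overlap, but the log2 fold change of 1.41, with a 95% interval of 0.46 to 2.36, missed the threshold (SE 0.421, limma adjusted p = 0.0513). Mlkl (chromosome 8, 111311797 to 111338177) read 176, 450.3, 192 and 141 in controls and 452, 569.6 and 823 in ICI-myocarditis. Its highest control and its lowest ICI-myocarditis heart were nearly equal. Mlkl rose by 1.46 (SE 0.394, limma adjusted p = 0.0355).

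**Figure D2:**
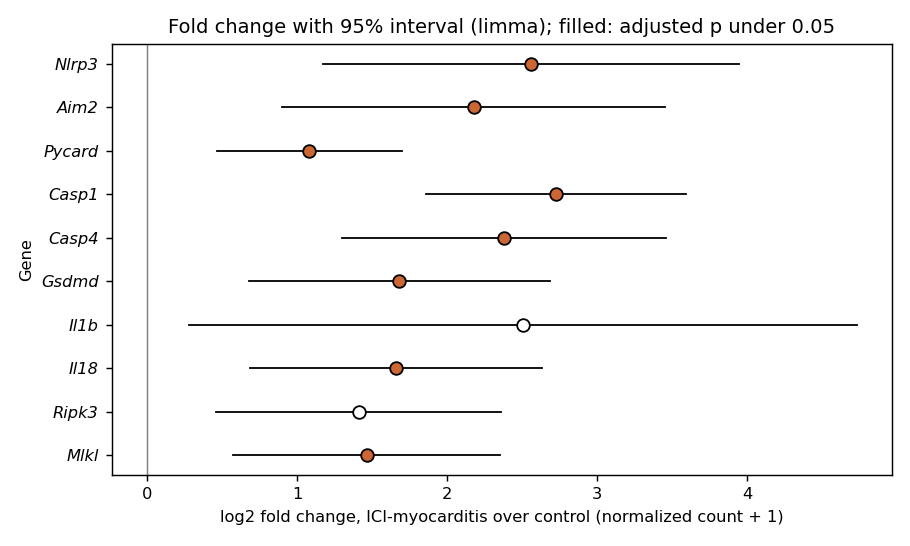
Log2 fold change of each gene (ICI-myocarditis over control, points) with the 95% interval from limma (lines). Filled points passed an adjusted p of 0.05, and the open points are Il1b, with the widest interval (0.28 to 4.73), and Ripk3 (0.46 to 2.36).

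The calls depended on which hearts were used. Without control 2 all 10 genes were called, beside 22.1% of all genes tested (3340), Il1b at 3.35 and Ripk3 at 1.74 on the log2 scale. Only 2 were called without control 1, without control 3, without ICI-myocarditis 2 or without ICI-myocarditis 3, and these were Casp1 and Casp4 each time, beside 9.93%, 8.57%, 9.27% and 6.55% of all genes. Leaving out control 4 gave 4 calls (13.8% of all genes) and leaving out ICI-myocarditis 1 gave 3 (10.7%). All 10 fold changes stayed above 0 in each of these 7 fits, with medians from 1.59 to 2.41. Over all 17 alternatives, Casp1 and Casp4 were called in every one (largest adjusted p 0.0187 and 0.0479), Nlrp3 in 13, Pycard in 12, Il18 in 10, Aim2 in 9, Gsdmd and Mlkl in 7, Ripk3 in 3 and Il1b in 1. The authors' deposited table gave 9 of the genes an adjusted p below 0.05, as it did 20.2% of the 16882 genes with such a value. Ripk3 had an adjusted p of 0.0220 in the authors' deposited table, and Il1b, at 0.205, was the exception there.

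Levels can be set against each other only per transcript length, here as normalized counts per kilobase of the longest principal transcript in GENCODE M21, with the SD. In the 4 controls Gsdmd led with 226 ± 161 per kilobase, followed by Casp4 at 123 ± 82.4, Mlkl at 121 ± 71.7, Pycard at 111 ± 30.2, Casp1 at 91.7 ± 46.1 and Ripk3 at 76.8 ± 43.4. Aim2 had 43.4 ± 39.6, and Il18, Il1b and Nlrp3 closed the order at 22.3 ± 8.41, 21.0 ± 27.6 and 13.1 ± 11.9. No neighbours in this order differed beyond their SDs. In the 3 ICI-myocarditis hearts Gsdmd at 627 ± 147 per kilobase, Casp1 at 560.5 ± 110.1 and Casp4 at 544 ± 88.7 lay within each other's SDs. Mlkl at 311 ± 95.9 stood below them, followed within the SDs by Pycard at 230.2 ± 52.5, Ripk3 at 186 ± 43.4 and Aim2 at 156 ± 50.1. Il18, Nlrp3 and Il1b, at 71.5 ± 22.8, 65.2 ± 33.4 and 60.7 ± 10.3, were again lowest and did not differ beyond their SDs. Places in this order depend on the length used. Per kilobase of all annotated exons Casp4 had 47.5 ± 31.9 in controls and 211 ± 34.3 in ICI-myocarditis. Casp1 kept 91.7 ± 46.1 and 560.5 ± 110.1. Gsdmd then lay at 472 ± 111 in ICI-myocarditis, below Casp1 but within the SDs. In controls Pycard, at 111 ± 30.2, lay above Mlkl, at 104 ± 61.5, also within the SDs.

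Ratios within a library were read to see whether linked genes changed unequally, with a two-sided exact permutation of the 35 possible splits, whose smallest p is 0.0286. Of 10 pairs, 3 reached that p and 0 passed after adjustment over the pairs. A pass after adjustment needed most of the pairs to reach that p, so no conclusion was drawn from the 0. The log2 ratio of Casp1 to Pycard averaged -1.70 ± 0.652 over the 4 controls and -0.06 ± 0.401 over the 3 ICI-myocarditis hearts (SDs), higher in 3 of 3 hearts than in any control (exact permutation p = 0.0286, adjusted 0.0952). Gsdmd to Casp1 went the other way, from 1.46 ± 0.395 to 0.41 ± 0.0615, lower in 3 of 3 hearts than in any control (exact permutation p = 0.0286, adjusted 0.0952). Zbp1 encodes a nucleic acid sensor that engages RIPK3, and RIPK1, the product of Ripk1, is the kinase that recruits it below the TNF receptor. The log2 ratio of Zbp1 to Ripk1 was -2.25 ± 1.14 and 1.57 ± 0.272, with 3 of 3 hearts above all controls (exact permutation p = 0.0286, adjusted 0.0952). Ripk3 to Ripk1 was -2.34 ± 0.319 and -1.68 ± 0.246, again with 3 of 3 hearts above (exact permutation p = 0.0571, adjusted 0.143). Mlkl to Ripk3 was 0.74 ± 0.320 and 0.79 ± 0.247 (exact permutation p = 0.83). Casp4 to Casp1, Aim2 to Nlrp3 and Il1b to Il18 differed by -0.34, -0.38 and 0.85 (exact permutation p = 0.114, 0.0857 and 0.571).

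Markers of several leukocytes moved with the 10 genes. Over all genes tested, 11.7% were called higher and 4.00% lower. Of 12 macrophage and monocyte markers 10 rose, with a summed level of 12766 to 18821 in controls and 50564 to 77790.4 in ICI-myocarditis. All 6 T cell markers rose, with sums of 101 to 1308 and 5926 to 9054. Of 10 neutrophil markers 4 could be tested and 2 of these, Csf3r and Ltf, were called higher, but Ltf passed the filter only through the ICI-myocarditis hearts. The neutrophil sum was 64.5 to 232 and 351 to 925, of which Csf3r alone gave 28.8 to 179 and 282 to 820. The defining genes S100a8 and S100a9 had means of 20.7 and 33.3 in controls and 16.6 and 14.9 in ICI-myocarditis, and Ly6g has no row. Dendritic cell markers (2 of 6 rose) summed to 686 to 2239 and 1609 to 2286, and B cell markers (1 of 4 tested rose) to 51.4 to 127 and 118 to 150.4. Endothelial markers (2 of 5 fell) summed to 25093 to 63951 and 16584 to 24066, and fibroblast markers (1 of 5 rose) to 22863 to 39064 and 41424 to 78707. Of the skeletal muscle markers 2 could be tested and Ckm, which heart muscle also expresses, fell (sums 17693 to 52363 and 5388 to 14766). Thymus markers summed to at most 16.7, with Foxn1 at 0 in every library. Over all genes, 6.55% to 22.1% were called with 1 library left out. In those fits 7 to 10 macrophage and monocyte markers and 5 to 6 T cell markers were called. Each of the other lists named here with a call kept at most 1 without ICI-myocarditis 3. The part of these cells in the changes of the 10 genes was not tested.

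Each gene was also set against the mean log2 level of the 12 macrophage and monocyte markers in the same heart. None of the 10 (0 of 10) passed after adjustment, which again needed most of the ratios to reach the smallest p. No conclusion was drawn from this lack of passes. The smallest p was reached by 1 gene. That gene was Pycard, at -0.40 ± 0.471 over controls and -1.48 ± 0.659 over ICI-myocarditis hearts (SDs), lower in 3 of 3 hearts than in any control (exact permutation p = 0.0286, adjusted 0.238). Mlkl was likewise lower in 3 of 3 hearts, at -1.31 ± 0.339 and -2.01 ± 0.170 (exact permutation p = 0.0571, adjusted 0.238). Ripk3 had -2.05 ± 0.555 and -2.80 ± 0.145 (exact permutation p = 0.0857, adjusted 0.238). Casp1 had -2.10 ± 0.360 and -1.54 ± 0.274, with 2 of 3 hearts above all controls (exact permutation p = 0.114, adjusted 0.238). Differences for Nlrp3, Aim2, Casp4 and Il1b were 0.39, 0.01, 0.22 and 0.34, the signs for Aim2 and Il1b turning with a pseudocount of 5, and those for Gsdmd and Il18 were -0.49 and -0.51.

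**Figure D3:**
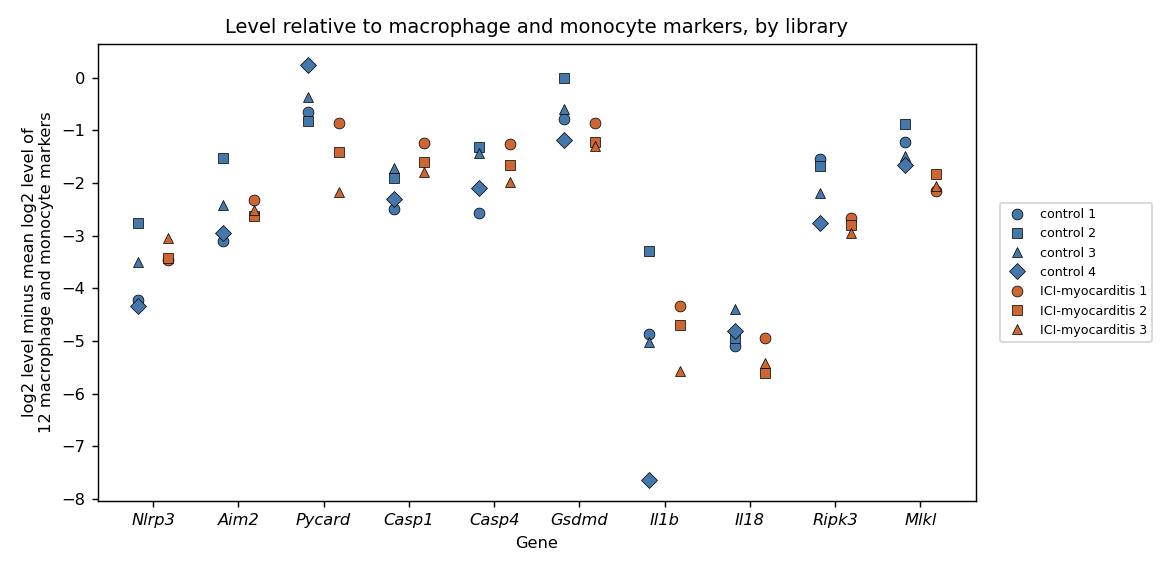
Log2 level of each gene minus the mean log2 level of 12 macrophage and monocyte markers in the same library, with controls in blue and ICI-myocarditis in orange. For Pycard and Mlkl the 3 ICI-myocarditis hearts lie below all 4 controls, and for the other genes the groups overlap.

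Other sensors of inflammasomes formed a list of 11 genes, of which 8 could be tested, at a median log2 fold change of 2.59. Of these 8 genes 7 rose, beside 11.7% of all genes tested. With 1 library left out the number was 2 without ICI-myocarditis 3, 4 without control 1 or ICI-myocarditis 2, 5 without control 3, control 4 or ICI-myocarditis 1, and 8 without control 2. These fits called 6.55% (without ICI-myocarditis 3) to 22.1% (without control 2) of all genes in either direction. Naip6 and Mefv needed ICI-myocarditis libraries to pass the filter on low values, and of the other 6 tested genes 5 rose, with a median of 2.33. Naip1, Nlrp6 and Nlrp12 were too low to test. Ifi204, a DNA-binding relative of Aim2, went from 186 to 596 normalized counts in controls to 1447 to 2296 in ICI-myocarditis, a log2 rise of 2.57 (limma adjusted p = 0.00405). Nlrp1a rose by 2.72 (limma adjusted p = 0.00995). Naip2 and Naip5, which detect bacterial secretion proteins and flagellin, rose by 2.08 and 1.95 (limma adjusted p = 0.0128 and 0.0157). Their partner Nlrc4 had 26.2, 126, 60.3 and 31.3 normalized counts in controls and 134, 123 and 199 in ICI-myocarditis, with control 2 above 1 heart. Its log2 fold change of 1.55 did not pass (limma adjusted p = 0.0772), but without control 2 it was 1.99 and did. Without ICI-myocarditis 3 neither Naip2 nor Naip5 passed (limma adjusted p = 0.0599 and 0.0722), and without ICI-myocarditis 2 Naip5 did not (0.0502). The Naip, Nlrp1 and Ifi200 genes are families of related copies, so their values are uncertain.

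The list around inflammasome licensing held 7 genes, of which 3 rose, beside 11.7% of all genes tested. The other 4 did not pass, and the median was 0.74. With 1 library left out 2 to 4 rose, beside 6.55% to 22.1% of all genes called in either direction. Listing Casp12 here does not give it a licensing role. Panx1, encoding a membrane channel for ATP, had 65.5, 121, 79.3 and 65.1 normalized counts in controls and 505, 619 and 1037 in ICI-myocarditis. Its log2 rise was 3.09 (SE 0.327, limma adjusted p = 0.00251). P2rx7, the gene of the ATP-gated receptor upstream of NLRP3, rose by 1.08 (limma adjusted p = 0.0293), and Casp12, a further caspase gene of the same cluster, by 2.62 (limma adjusted p = 0.00392). Panx1 and Casp12 were called in all 17 alternatives. P2rx7 was called in 11. With the replicate block, where control 4 has no partner and does not enter the fold change, it lost its call (limma adjusted p = 0.0773). It also lost its call without control 1, 3 or 4 and without ICI-myocarditis 2 or 3. Its adjusted p was highest without ICI-myocarditis 3 (0.124 by limma). The remaining members, Nek7, Txnip, Brcc3 and Casp8, had log2 fold changes of -0.12, -0.43, -0.15 and 0.74 and were not called.

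Beside Gsdmd, other gasdermin genes were near 0 or not called. Gsdmc, Gsdmc2 and Gsdmc3 were at 0 in all libraries, and Gsdma and Gsdmc4 were too low to test. Gsdme, listed under its older symbol Dfna5, had 17.5 to 46.9 normalized counts in controls and 39.9 to 86.3 in ICI-myocarditis and did not pass (limma adjusted p = 0.189, log2 fold change 1.01). Ninj1, whose product ruptures the membrane after pore formation, had a log2 fold change of 0.58 (limma adjusted p = 0.283).

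The 16 genes upstream of necroptosis held 6 that rose, beside 11.7% of all genes tested, with a median of 0.74. The number was 2 without ICI-myocarditis 3, 3 without ICI-myocarditis 2, 3 with the replicate block, 4 without control 1, 3 or 4, and 9 without control 2. Of all genes, 6.55% (without ICI-myocarditis 3) to 22.1% (without control 2) were called in these fits, in either direction. Zbp1 had 61.5, 571, 107 and 95.1 normalized counts in controls and 2841, 3372 and 3739 in ICI-myocarditis, so that even control 2 lay far below the lowest ICI-myocarditis heart. It rose by 4.57 (SE 0.636, limma adjusted p = 0.00376). Tnfaip3, encoding the A20 restraint on this pathway, rose by 2.10 (limma adjusted p = 0.00866), and Tlr3, a receptor for double-stranded RNA, by 1.07 (limma adjusted p = 0.0135). Tlr3 lost its call without ICI-myocarditis 2 or ICI-myocarditis 3 (limma adjusted p = 0.0634 and 0.0552) and with the replicate block (limma adjusted p = 0.0566). Ripk1 had 424 to 979 normalized counts in controls and 838 to 1558 in ICI-myocarditis, with overlapping groups, and did not pass (limma adjusted p = 0.144, log2 fold change 0.75), while without control 2 it did (0.0481). Nearest to no change were Pgam5 and Fadd, at -0.14 and 0.24 (limma adjusted p = 0.744 and 0.607), the former with a sign that turned under 3 alternatives, scaling by library total among them. Tnf, chosen for mention after its values were seen, rose by 3.94. It needed ICI-myocarditis libraries to pass the filter, so its p is not given, and of the other 15 genes 5 rose.

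Of 10 further IL-1 family genes, 9 could be tested and 6 rose, beside 11.7% of all genes tested, with a median of 2.35. The number was 2 without ICI-myocarditis 3, 4 without ICI-myocarditis 2, 5 without control 1 or ICI-myocarditis 1, and 6 without control 2, 3 or 4. Calls over all genes in these fits, in either direction, made up 6.55% (without ICI-myocarditis 3) to 22.1% (without control 2). Il1rn and Il1r2 needed ICI-myocarditis libraries to pass the filter on low values, and of the other 7 tested genes 4 rose, with a median of 1.55. Il1rn, the gene of the IL-1 receptor antagonist, had 9.07, 33.3, 4.47 and 7.51 normalized counts in controls and 249, 460.2 and 786 in ICI-myocarditis. It rose by 5.32 (SE 0.638). Since Il1rn entered through the group where it is high, its p is not given. The log2 ratio of Il1rn to Il1b averaged -0.37 ± 1.60 over controls and 2.44 ± 1.06 over ICI-myocarditis hearts (SDs), above all controls in 2 of 3 hearts (exact permutation p = 0.0857, adjusted 0.143). Il18bp, which encodes the soluble trap for IL-18, went from 290.3 to 601 to 1375 to 2744 normalized counts and rose by 2.35 (limma adjusted p = 0.00376). Its log2 ratio to Il18 differed by 0.69 (exact permutation p = 0.143, adjusted 0.179). Il1r2, the decoy receptor gene, had 1.01 to 3.70 normalized counts in controls and 19.6 to 34.8 in ICI-myocarditis. Its controls were all below the minimum of 10, so it entered only through the group where it is high and its p is not given. The signalling receptor genes Il1r1 and Il1rap were nearest to no change, at 0.16 and 0.19 (limma adjusted p = 0.714 and 0.645), with signs that turned without ICI-myocarditis 3. Both IL-18 receptor genes, named after their values were seen, rose, Il18r1 by 3.45 and Il18rap by 3.66 (limma adjusted p = 0.0121 and 0.0107).

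**Figure D4:**
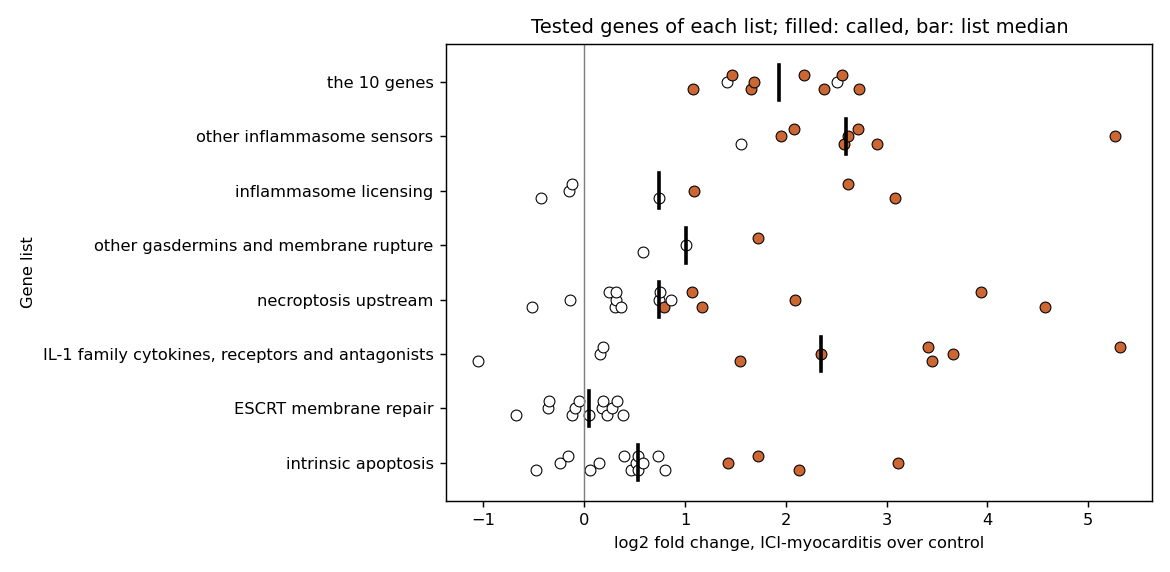
Log2 fold change of every tested gene in the 10-gene set and in 7 related lists, with called genes filled and a bar at each list's median. The sensors (median 2.59) and IL-1 family genes (2.35) lie farthest to the right, while the 13 ESCRT genes, all open, scatter around 0.04. Without genes that needed ICI-myocarditis libraries to pass the filter, these medians were 2.33 for the sensors and 1.55 for the IL-1 family. The median of the 10 genes was 1.93.

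Genes of programmes next to pyroptosis and necroptosis were read for comparison. The ESCRT complex removes membrane patches that carry gasdermin or MLKL pores. Of its 13 genes 0 were called by limma, beside 15.7% of all genes tested. Without control 2 it was 1, called lower, beside 22.1% of all genes. With all libraries 1 of the 13 had an unadjusted p under 0.05, and the median was 0.04. The median of 17 genes of intrinsic apoptosis was 0.53. Of these, 3 to 6 rose with 1 library left out, beside 6.55% to 22.1% of all genes called in either direction. With all libraries 4 rose, beside 11.7% of all genes tested. Among them were Bak1 at 1.43, Pmaip1 (encoding NOXA) at 3.11 and Bid at 2.13 (limma adjusted p = 0.00360, 0.00405 and 0.00702). Bak1, whose product permeabilizes mitochondria, had 808 to 1135 normalized counts in controls and 2207 to 2911 in ICI-myocarditis. Differences between these lists and the 10 genes were not tested.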

How the data were processed

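RNA of 4 control and 3 ICI-myocarditis hearts was sequenced from stranded total RNA libraries, per the labels' protocols. STAR 2.7.3 and the builds GRCm38 and mm10 are named in the submitters' processing notes. The counting program, annotation and use of strand are not given in the sources used here. The per-library values are a signal deposited by the authors, namely gene counts scaled by a size factor. Per the file headers, the table also holds their mean, a log2 fold change, a score (the test statistic) and p-values of the comparison the authors ran. All values were whole multiples of 1 step per library (within 0.01), so reads were recovered. For control 1 the step, 1.01, is close to 1, a weaker sign.

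limma 3.58.1 in R 4.3.3 (trend, robust) was run on log2(normalized count + 1) for genes reaching 10 normalized counts in 3 or more libraries, with Benjamini-Hochberg adjustment over all 15258 genes and a threshold of 0.05. edgeR 4.0.16 and DESeq2 1.42.0 on recovered reads, other pseudocounts (0.5 and 5), filters and scalings, a replicate block and leaving out each library were alternatives. The scripts were tested on simulated counts. All 10 genes were named, and of each other list every called gene or, where more than 5 were called, the 3 with the lowest p and the 2 nearest to no change, beside the genes in ratios. A listed gene that this rule would name is not reported here. Other uncalled list members were named after their values were seen. The 10 genes and all lists were chosen with earlier results of these data known. Gene positions come from GENCODE M21 (GRCm38) and promoter sequences from RefSeq.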

Additional observations from a re-analysis of the deposited data

Results flagged for a closer look

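Of 53 gene levels and ratios examined on the log2 scale in the 4 controls, 4 had an extreme library whose distance to its nearest neighbour, as a share of the group's range, exceeded Dixon's 95% critical value. Chance gives about 1 in 20. That library was control 2 each time, as the highest: the share was 0.918 for Nlrp1a, 0.885 for Il18bp, 0.866 for Il1r2 and 0.843 for P2rx7. The Il1r2 flag rests on values near 0, at 1.01 to 3.70 normalized counts in controls. None of the 10 genes was among these 4. Without control 2 the log2 fold change of Nlrp1a was 3.22 and that of Il18bp 2.60, and both were called with and without it.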

How the results depend on the processing

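Over all genes 2397 were called, and from 986 to 3340 when 1 library was left out (3340 without control 2, 986 without ICI-myocarditis 3, 1298 without control 3, 1396 without ICI-myocarditis 2, 1508 without control 1). Of the 10 genes 8 were called, and from 2 to 10 when 1 library was left out. The number called was 5 with scaling by library total, 5 with edgeR's quasi-likelihood test and 5 with the replicate block, and between 6 and 9 in the other settings that kept all libraries. Scaling by library total moved the median log2 fold change of all genes from -0.02 to 0.13. No pairing of hearts by label number was seen: deviations from the group means correlated at -0.271, -0.206 and -0.0784 for same-numbered hearts. This check, on so few pairs, cannot settle whether the numbers pair the hearts. The replicate block, where control 4 has no partner and does not enter the fold change, gave 1780 calls over all genes. Its median log2 fold change of the 10 genes was 1.59, as it was without control 4. Signs turned for Pgam5 (0.016 with scaling by library total, 0.015 with the replicate block, -0.32 to 0.015 with 1 library left out), Il1r1 (-0.0089 with the replicate block, -0.012 to 0.30 with 1 library left out) and Il1rap (-0.040 to 0.34 with 1 library left out). With a pseudocount of 5 the ratios of Aim2 and Il1b to the macrophage and monocyte markers turned to -0.020 and -0.12. The causes were not tested. With 1 library left out the ratios were read as values only. Il18 and Il1b rest on the fewest reads, at most 106 per library.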

Other observations

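Casp1, Casp4 and Casp12 follow each other on the plus strand of chromosome 9 (GRCm38, GENCODE M21), at 5298517 to 5307265, 5308828 to 5336783 and 5345430 to 5373032, and all 3 rose, by 2.73, 2.38 and 2.62 on the log2 scale. Casp12 had 241, 648, 577 and 266 normalized counts in controls and 3003, 2358 and 1995 in ICI-myocarditis. The next protein-coding gene after them, Pdgfd, had 709 to 1486 and 648 to 879.9 normalized counts and did not pass (limma adjusted p = 0.257, log2 fold change -0.48), and Gria4, the one before, was too low to test, at 4.03 to 10.7. This stretch was looked at after the values had been seen. Trim72, a protein-coding neighbour of Pycard, had 11279.8 to 20662 normalized counts in controls and 4443 to 9688 in ICI-myocarditis and did not pass (limma adjusted p = 0.0509, log2 fold change -1.13).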
